A study of Mus musculus with 3 samples.

Results

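The 44 genes described here repair double-strand breaks and interstrand crosslinks in DNA, or signal that such damage is present. They were chosen by gene symbol: 18 genes of homologous recombination, 8 of end joining, 10 of the Fanconi pathway and 8 damage kinases and mediators. Of the 44, 43 have a value in the authors' deposited table, among 11886 genes in all, and Rad51c, a recombination gene, is the 1 gene without a row. The 43 genes are represented by 72 RefSeq transcripts, of which 64 are coding. A single transcript stands for 28 of the genes, and 15 genes have 2 or more.

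RNA came from mT3-2D-GFP, a mouse KPC line (a model of pancreatic cancer) of C57BL/6 origin that carries a green fluorescent protein. The 3 groups were GFP-positive cells sorted from tumours that this line formed in immunodeficient B6.CB17-Prkdcscid/SzJ (SCID) mice, GFP-positive cells sorted from tumours in immunocompetent C57BL/6 (WT) mice, and the line grown in culture. RNA of 5 SCID tumours was pooled into 1 library, RNA of 6 WT tumours into another, and the culture gave the third, so all 3 libraries derive from 1 line and no spread between tumours was measured. The labels do not give the age of the mice, the time after implantation or the promoter that drives GFP.

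Double-strand breaks are repaired either by homologous recombination, which copies the sister chromatid and so works mainly in S and G2 phase, or by end joining, which religates the ends at any stage. Crosslinks that tie the strands together are unhooked under the control of the Fanconi proteins and then handed to recombination. The kinases ATM and ATR detect the lesions and hold the cell cycle. Many genes of recombination and of the Fanconi pathway are transcribed as cells enter S phase, under E2F factors. Prkdc has a particular place in the design, because SCID mice carry a mutation of this gene; the implanted tumour cells come from a C57BL/6 line, and the table does not separate alleles.

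Each value below is a log2 fold change from the authors' deposited table, averaged over the transcripts of a gene. A difference is tumour minus cell line, or SCID minus WT, and a gene was called lower or higher at 2-fold, a log2 value of 1. With 1 library per group there is no replicate check, no test between groups and no p-value, and the level of a gene in each library is not in the table. Depth per library is unknown, because the table holds no counts; the labels state a mean of 40000000 reads per sample. The log2 scale was read from the submitters' tool list and the range of the values, and a fold on it may differ from a ratio of reads, since any shrinkage by the authors is not stated.

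Sequence upstream of the transcription start was examined because many of these genes differed in the same direction. A RefSeq promoter of build GRCm38.p6, from 250 bases before to 50 after a start, was matched to 33 of the 43 genes. Exo1, Fancd2 and Xrcc2, at -1.35, -1.25 and -0.78 in SCID tumour cells against the line, were not among the 33. Their promoters were therefore not searched. The searched sequences were 4 E2F-type sites (TTTCCCGC, TTTGGCGC, TTTCGCGC and TTTGCCGC), 2 forms of the CHR element of mitotic genes (TTTGAA and TTCGAA) and the CCAAT box (CCAAT), on both strands. None of these motifs contains another. The following windows lie wholly before the start. They belong to the 5 genes with the lowest values in SCID tumour cells against the line, among those of the 33 holding a searched motif. Capitals mark the motif, read 5′ to 3′ along the strand of the gene.
Fanca: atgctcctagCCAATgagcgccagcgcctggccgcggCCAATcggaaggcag
Polq: gcttccgaTTCAAAccagaaataa
Fancb: tccacactgtCCAATcccatagtgt
Brca1: gactaggtagCCAATcgcaaaccca
Brip1: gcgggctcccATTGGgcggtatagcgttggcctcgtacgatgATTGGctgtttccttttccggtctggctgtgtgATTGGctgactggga
These windows are at chr8:123318585-123318636 on the reverse strand for Fanca, chr16:37011536-37011559 on the forward strand for Polq, chrX:164980381-164980405 on the forward strand for Fancb, chr11:101552027-101552051 on the reverse strand for Brca1 and chr11:86201213-86201302 on the reverse strand for Brip1. Fanca holds 2 CCAAT boxes, Brip1 holds 3 on the opposite strand, and Polq holds a CHR element on the opposite strand.

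An E2F-type site was found in 6 of the 33 promoters, all of the form TTTCCCGC. These 6 are shown because the site is the same in each.
Bard1: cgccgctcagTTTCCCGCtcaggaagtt
Xrcc6: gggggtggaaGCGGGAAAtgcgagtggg
Brca2: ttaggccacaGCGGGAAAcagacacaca
Chek2: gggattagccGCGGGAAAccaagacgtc
Mdc1: cttcagcctgTTTCCCGCcggtagcc
Fancg: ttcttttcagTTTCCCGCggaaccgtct
The Xrcc6, Brca2 and Chek2 sites are on the opposite strand, and the Mdc1 window ends at the last base before the start. Their coordinates are chr1:71103164-71103191 (reverse) for Bard1, chr15:82016313-82016340 (forward) for Xrcc6, chr5:150522443-150522470 (forward) for Brca2, chr5:110839821-110839848 (forward) for Chek2, chr17:35841472-35841497 (forward) for Mdc1 and chr4:43010336-43010363 (reverse) for Fancg. The site was present in 18.2% of the repair promoters and in 4.30% of the promoters of 9168 genes of the table. It was present in 12 of 34 promoters of replication and G1/S genes, 35.3%. In promoters of further break and crosslink repair genes, listed below for comparison, it was present in 4 of 56, 7.14%.

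Genes with and without the E2F-type site overlapped in their values. The 6 holding it had a median of -0.46 in SCID tumour cells against the line, and the other 27 had a median of -0.30. None of the 6 was lower by 1.5-fold or more, against 8 of the 27 without it (29.6%). Exo1, Fancd2 and Xrcc2, each lower by 1.5-fold or more in that comparison, had no promoter searched and are in neither group. Over all genes with a promoter the counts ran the other way. There 62 of the 394 with the site (15.7%) were lower by 1.5-fold or more, against 767 of the 8774 without it (8.74%). The medians were -0.13 and -0.016. Replication and G1/S genes had the same order as the repair genes, with 9 of 12 with the site (75%) and 19 of 22 without it (86.4%). Further break and crosslink repair genes, listed below for comparison, had the opposite order, 2 of 4 (50%) and 10 of 52 (19.2%). Counts this small among the repair genes were not tested. CCAAT boxes were in 21 of 33 repair promoters (63.6%, against 38.8% of the 9168), with a median of -0.32 in the 21 and -0.31 in the other 12. The share was similar or larger in promoters of replication and G1/S genes (22 of 34, 64.7%) and mitosis genes (17 of 23, 73.9%). In promoters of the further break and crosslink repair genes it was 27 of 56 (48.2%). The CHR element was in 3 of the 33 (9.09%, against 13.4% of the 9168), while 16 of 23 promoters of mitosis genes held it. A match describes the letters of a promoter and shows no binding, and the lack of a match does not show that binding is absent.

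Most break and crosslink repair genes had lower RNA in sorted tumour cells than in the cultured line. In SCID tumour cells 34 of 43 were below 0, with a median of -0.32, and 5 were lower by 2-fold: Exo1, Fancd2, Fanca, Polq and Fancb. None was higher by 2-fold. Over all 11886 genes of that comparison, 51.7% were below 0, the median was -0.015, 2.62% were lower by 2-fold and 3.65% higher, so the repair share of 11.6% lower by 2-fold stood above the background. In WT tumour cells 36 of 43 were below 0, with a median of -0.33, and 4 were lower by 2-fold (9.3%, against 2.03% of all genes): Exo1, Fancb, Fanca and Fancd2. Of all genes in that comparison 51.4% were below 0, the median was -0.014 and 4.12% were higher by 2-fold, whereas no repair gene was. The SCID and WT comparisons share the cell line library, so their similarity is no second observation.

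At 1.5-fold, 11 of 43 repair genes (25.6%) were lower in SCID tumour cells, where 9.43% of all genes were, and 11 were lower in WT tumour cells, where 8.36% of all genes were. No repair gene was higher by 1.5-fold in either, while 11% and 11.3% of all genes were.

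**Figure D1:**
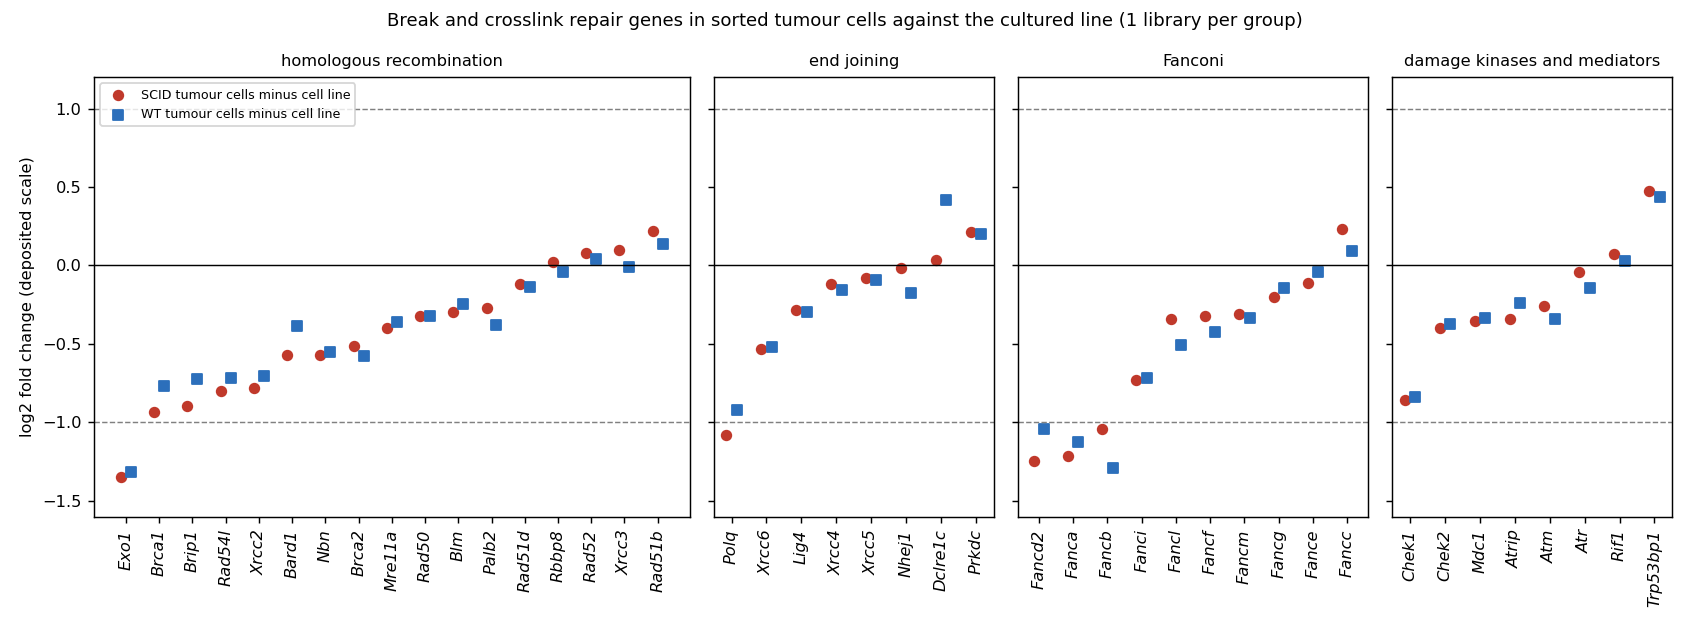
Log2 fold change of each repair gene in SCID tumour cells (red circles) and WT tumour cells (blue squares) against the cultured line, by pathway and ordered by the SCID value; dashed lines mark 2-fold, and each point is the mean over transcripts of 1 library pair. The points run from Exo1, at -1.35 (SCID) and -1.32 (WT), up to Trp53bp1, at 0.48 (SCID) and 0.44 (WT), and most lie below 0.

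Homologous recombination genes had a median of -0.40 in SCID tumour cells and -0.38 in WT tumour cells, each against the line. Of the 17 with a value, 13 were below 0 in the first comparison and 15 in the second. The lowest was Exo1, the exonuclease that extends resection of broken ends, at -1.35 (2.55-fold lower) in SCID tumour cells and -1.32 in WT tumour cells. That placed it at percentile 0.976 of all genes in the SCID comparison and 0.85 in the WT comparison. Exo1 lies on chromosome 1 from 175880778 to 175911396 on the forward strand.

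The other resection genes were closer to 0. Nbn, of the MRN complex that binds broken ends, was at -0.57 in SCID tumour cells and -0.55 in WT tumour cells. Its partner Mre11a, the nuclease, was at -0.40 (SCID) and -0.36 (WT). Rad50, the ATPase that bridges the ends, was at -0.32 in both. Rbbp8, encoding CtIP, which starts resection together with MRN, was at 0.021 in SCID tumour cells and -0.038 in WT tumour cells, the mean of a coding and 2 non-coding transcripts. Its coding transcript alone was at -0.37 (SCID) and -0.066 (WT). Blm, the helicase defective in Bloom syndrome in humans, was at -0.30 (SCID) and -0.24 (WT), but its transcripts parted. NM_001042527 was at -0.75 (SCID) and -0.80 (WT), while NM_007550 was at 0.16 (SCID) and 0.32 (WT).

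BRCA complex genes were among the lower ones. Brca1, which directs breaks toward recombination, was at -0.93 (1.91-fold lower) in SCID tumour cells and -0.77 in WT tumour cells. Brip1, the helicase that binds BRCA1, was at -0.90 (SCID) and -0.73 (WT). Bard1, the obligate partner of BRCA1, was at -0.57 (SCID) and -0.39 (WT). Brca2, which acts at resected single strands in recombination, was at -0.51 (SCID) and -0.58 (WT). Palb2, the bridge between BRCA1 and BRCA2, was at -0.27 (SCID) and -0.38 (WT), with 1 of its 3 transcripts near 0 in both comparisons and a median transcript of -0.42 in SCID tumour cells. Rad52, an annealing protein, was above 0 at 0.081 (SCID) and 0.039 (WT), with a median transcript of 0.030 in SCID tumour cells.

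The paralogue group (Xrcc2, Xrcc3, Rad51b and Rad51d) did not share a direction. Xrcc2 was at -0.78 in SCID tumour cells and -0.70 in WT tumour cells, and Rad54l, a motor protein of recombination, was at -0.80 (SCID) and -0.72 (WT). Xrcc2 and Rad51d are partners in the same paralogue complex, yet Rad51d was at -0.12 (SCID) and -0.13 (WT), with 7 transcripts. Rad51b was at 0.22 (SCID) and 0.14 (WT), and Xrcc3 at 0.099 (SCID) and -0.008 (WT).

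End joining genes lay closest to 0 of the 4 pathways in SCID tumour cells against the line, with a median of -0.099; in WT tumour cells it was -0.17. Polq, the polymerase of theta-mediated end joining, stood apart at -1.08 (2.11-fold lower) in SCID tumour cells and -0.92 in WT tumour cells. Its call in the SCID comparison rests on the mean of NM_001159369 at -1.48 and NM_029977 at -0.68. The Ku subunits, which encircle broken ends as a heterodimer, differed from each other: Xrcc6 (Ku70) was at -0.53 (SCID) and -0.52 (WT), whereas Xrcc5 (Ku80) was at -0.079 (SCID) and -0.095 (WT). Prkdc, the catalytic subunit of DNA-PK that Ku recruits, was at 0.21 in SCID tumour cells and 0.20 in WT tumour cells, or 0.047 (SCID) and 0.11 (WT) without the GC and length trend.

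The ligation genes were slightly below 0. Lig4, the ligase, was at -0.28 (SCID) and -0.30 (WT). Xrcc4, its scaffold, was at -0.12 (SCID) and -0.16 (WT). Nhej1, encoding the XLF factor, was at -0.016 (SCID) and -0.18 (WT) (0.16 in SCID tumour cells and -0.014 in WT tumour cells once a GC and length trend was removed). Dclre1c, encoding the Artemis nuclease that opens hairpin ends, was at 0.037 in SCID tumour cells and 0.42 in WT tumour cells, the widest gap between the hosts among the 43 genes.

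Fanconi genes held 3 of the 5 calls in SCID tumour cells against the line and 3 of the 4 in WT tumour cells. Fanca, a core subunit often mutated in human Fanconi anaemia, was at -1.21 (2.32-fold lower) in SCID tumour cells and -1.12 in WT tumour cells. Fancb, an X-linked core subunit, was at -1.04 (SCID) and -1.29 (WT). Fancd2, which is ubiquitinated by the core complex, was at -1.25 (2.37-fold lower) in SCID tumour cells and -1.04 in WT tumour cells. These calls rest on the mean of 1 transcript at -1.63 (SCID) and -0.90 (WT) and another at -0.86 (SCID) and -1.18 (WT). Fanci, the partner of Fancd2, was at -0.73 (SCID) and -0.72 (WT). In the authors' deposited table Fanca is on chromosome 8 from 123268244 to 123318576 on the reverse strand, and Fancb is on chromosome X from 164980592 to 164997272 on the forward strand.

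The remaining core genes stayed within 1.5-fold. Fancl, the ubiquitin ligase, was at -0.34 (SCID) and -0.50 (WT), from a non-coding transcript only. Fancm, the translocase that anchors the core to DNA, was at -0.31 (SCID) and -0.33 (WT), and Fancf was at -0.32 (SCID) and -0.42 (WT). Fancg was at -0.20 (SCID) and -0.14 (WT), and Fance at -0.11 (SCID) and -0.044 (WT). The 2 coding transcripts of Fance alone averaged 0.31 in WT tumour cells. Fancc, the member of the group above 0, was at 0.23 (SCID) and 0.093 (WT). The gene values were uneven across a complex whose subunits act together. Fanca and Fancb, with 1 transcript each, were lower by over 2-fold. Fancc, Fance and Fancg lay between -0.20 and 0.23 in both comparisons, as means of transcripts that parted. In SCID tumour cells transcripts ran from -0.28 to 0.59 for Fancc, -0.65 to 0.26 for Fance and -0.37 to -0.036 for Fancg. In WT tumour cells they ran from -0.49 to 0.72 for Fancc, -0.74 to 0.56 for Fance and -0.43 to 0.14 for Fancg.

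All 5 genes of the damage kinase group (the kinases and Atrip) were below 0, by unequal amounts. Chek1, the effector kinase of ATR, was at -0.86 (1.81-fold lower) in SCID tumour cells and -0.83 in WT tumour cells, at percentile 3.77 (SCID) and 3.3 (WT) of all genes. Chek2, the effector of ATM, was at -0.40 (SCID) and -0.37 (WT). Atrip, the partner that brings ATR to single strands, was at -0.34 (SCID) and -0.24 (WT). The apical kinases were nearer to 0, with Atm at -0.26 (SCID) and -0.34 (WT) and Atr at -0.038 (SCID) and -0.14 (WT).

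The chromatin mediators divided. Mdc1, the scaffold that reads phosphorylated H2AX, was at -0.35 in SCID tumour cells and -0.33 in WT tumour cells. Trp53bp1, encoding 53BP1, which protects ends from resection, had the highest value of the 43 genes at 0.48 (SCID) and 0.44 (WT), and both of its transcripts were above 0 in each comparison. Without the GC and length trend it was at 0.31 (SCID) and 0.28 (WT). Rif1, which acts with 53BP1, was at 0.071 (SCID) and 0.028 (WT), and its median transcript was at -0.016 (WT).

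The spread between transcripts of a gene sets a scale for these differences, although it is not a spread between animals. Over the 15 genes with several transcripts the pooled SD was 0.30 in SCID tumour cells against the line and 0.31 in WT tumour cells against the line. Transcripts lay on both sides of 0 in 7 of the 15 in the SCID comparison and in 8 in the WT comparison. Fance had the widest range in both, 0.91 (SCID) and 1.30 (WT). Transcripts of 1 gene share exons, and how reads were divided among them is not given in the sources used here.

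**Figure D2:**
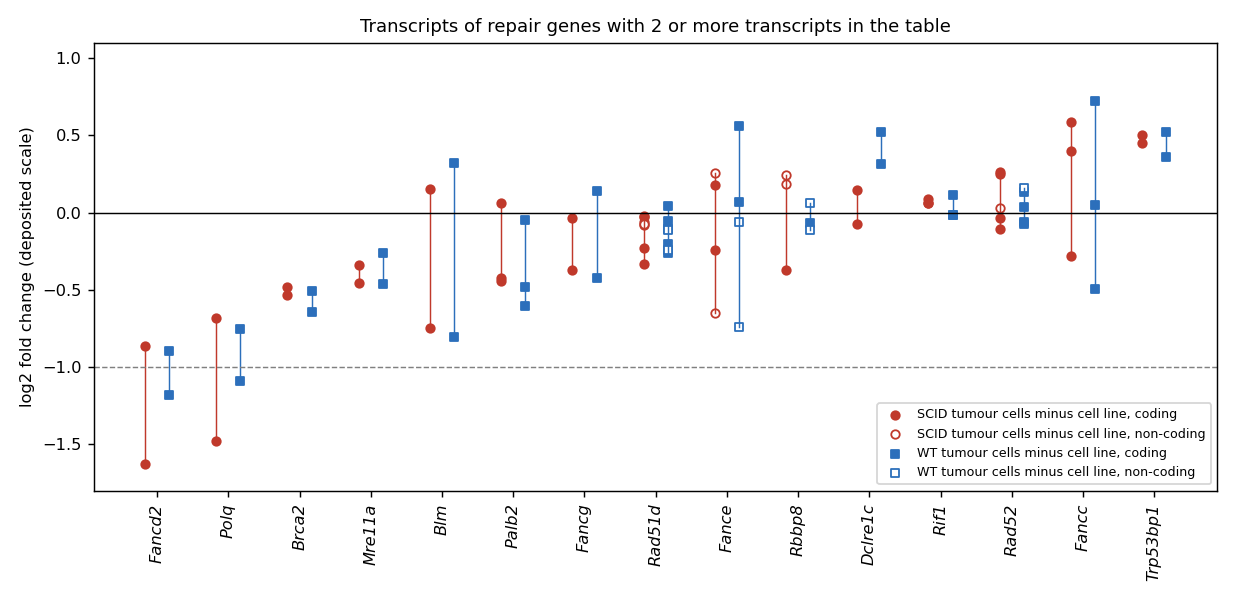
Log2 fold change against the cultured line of every transcript of the 15 repair genes with 2 or more transcripts, in SCID tumour cells (red) and WT tumour cells (blue); filled points are coding transcripts, open points non-coding ones, and vertical lines join the transcripts of a gene. The transcripts of Fancd2, Polq, Brca2 and Mre11a are all below 0 in both comparisons, those of Trp53bp1 are all above 0, and those of Blm, Fancc and Fance lie on both sides.

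Other genes of break and crosslink repair were listed for comparison, and their difference from the 43 genes was not tested. Of 72 further genes listed, 69 had a value. In SCID tumour cells against the line 56 of the 69 were below 0, with a median of -0.36, and 7 were lower by 2-fold while none was higher. The lowest were Rmi2, a subunit of the complex that dissolves recombination intermediates with BLM, at -1.46, Clspn, the adaptor through which ATR activates CHK1, at -1.29, and H2afx, the histone variant phosphorylated around breaks, at -1.27. The highest were Nsmce2 at 0.48, Rnf169 at 0.37 and Wrn at 0.36.

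In WT tumour cells against the line 55 of these 69 genes were below 0, with a median of -0.32, and 5 were lower by 2-fold. H2afx at -1.19 and Clspn at -1.11 were among the lowest. Rnf169 at 0.45, Slx1b at 0.36 and Wrn at 0.31 were the highest.

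Replication and mitosis genes were lower in the same libraries. All 44 replication and G1/S genes were below 0 in SCID tumour cells against the line (median -0.79, 9 lower by 2-fold) and in WT tumour cells against the line (median -0.72, 8 lower by 2-fold). All 29 mitosis genes were below 0 as well, with medians of -1.21 (SCID) and -1.09 (WT), and 24 (SCID) and 23 (WT) were lower by 2-fold. The repair medians of -0.32 and -0.33 thus lay between these and the all-gene medians near 0, and the difference between the lists was not tested. The part that the lower replication and mitosis RNA has in the repair values was not tested. The tumour cells had also been sorted out of tumours, a step the labels do not describe for the cultured line, so handling and growth in a host cannot be told apart. Fewer cycling cells and less RNA per cell cannot be told apart in pooled RNA.

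Other DNA repair pathways had smaller or similar medians. Mismatch repair genes had a median of -0.36 in SCID tumour cells and -0.27 in WT tumour cells against the line (7 genes), with Msh6, a subunit of the mismatch recognition complex, lowest at -0.66 (SCID) and -0.59 (WT). Base excision repair genes had medians of -0.16 (SCID) and -0.15 (WT) over 14 genes, with Fen1, the flap endonuclease, at -0.99 (SCID) and -0.82 (WT). Nucleotide excision repair genes had medians of -0.15 (SCID) and -0.20 (WT) over 21 genes, and Uvssa was highest at 0.80 (SCID) and 0.72 (WT). No gene of these 3 lists passed 2-fold.

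**Figure D3:**
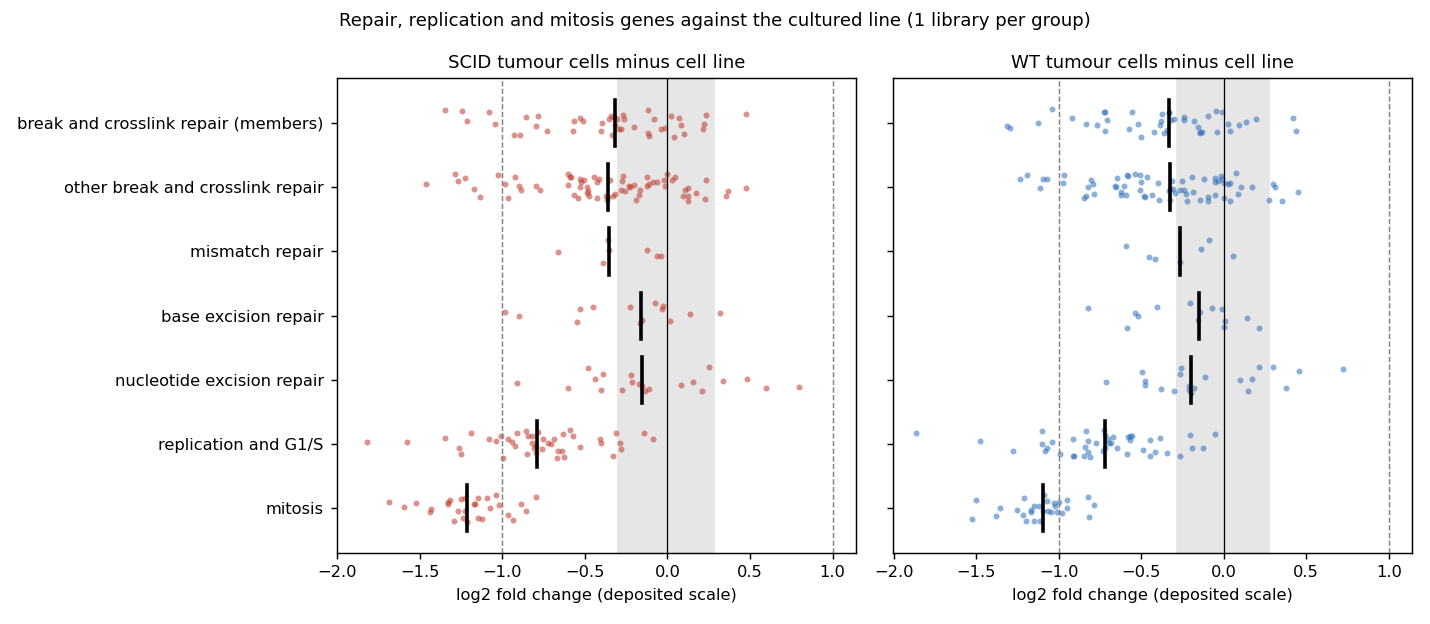
Log2 fold change against the cultured line of the genes of 7 lists in SCID tumour cells (left) and WT tumour cells (right); points are genes, black bars list medians, the grey band runs from the lower to the upper quartile of all 11886 genes and dashed lines 2-fold. The break and crosslink repair medians of -0.32 (SCID) and -0.33 (WT) lie between those of all genes and those of replication and mitosis genes.

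Between hosts, RNA of the repair genes differed little. In SCID against WT tumour cells 21 of 43 genes were below 0 and 22 above, with a median of 0.001, and none passed 2-fold or 1.5-fold in either direction. Of all 11886 genes, 51.5% were below 0, 0.303% were lower and 0.0168% higher by 2-fold, and 1.1% were lower and 0.177% higher by 1.5-fold. With backgrounds this small, a count of 0 among 43 genes says nothing about the repair genes in particular. The middle of the repair genes ran from -0.066 to 0.063 (lower to upper quartile), and that of all genes from -0.082 to 0.072. Once a trend in GC content and transcript length was taken out, 31 of the 43 were below 0, with a median of -0.025. The share of all genes below 0 after that step was not computed, so the 31 cannot be set against a background.

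The lowest value in SCID against WT tumour cells was that of Dclre1c at -0.38 (1.3-fold lower), with its 2 transcripts at -0.39 and -0.37. It stood at percentile 2.44 of all genes. Fancd2 followed at -0.21, but its transcripts were at -0.73 and 0.32, the widest range of the 15 genes with several transcripts. Taking out the GC and length trend left 1 Fancd2 transcript, and the gene at -0.76. Bard1 was at -0.18, Brip1 at -0.17 (-0.27 without the trend), Brca1 at -0.17 and Polq at -0.16, with Polq transcripts at -0.39 and 0.069.

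The highest value was that of Fancb at 0.25 (1.19-fold higher in SCID tumour cells), at percentile 96.8, from a single transcript. Fancl at 0.17, Nhej1 at 0.16, Fancc at 0.14 and Palb2 at 0.11 came next. Without the GC and length trend Fancb was at 0.16, Fancl at 0.071 and Fancc at 0.068, the last from 2 of its 3 transcripts. The pooled SD between transcripts of these genes was 0.240 in this comparison. Of the 43 gene values, as means over transcripts, Dclre1c and Fancb exceeded it in size, Fancb narrowly at 0.249. Which genes exceed it depends on the transcripts used: by coding transcripts alone Fance was at -0.34 and Rbbp8 at -0.30. In 12 of the 15 genes with several transcripts the transcripts lay on both sides of 0.

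Prkdc, the gene mutated in the SCID hosts, was at 0.015 in SCID against WT tumour cells, and at -0.059 without the GC and length trend. Its DNA-PK partners were as close, with Xrcc5 at 0.015 and Xrcc6 at -0.014. Atm at 0.082, Atr at 0.10 (-0.002 without that trend), Chek1 at -0.022, Chek2 at -0.027 and Trp53bp1 at 0.039 completed a signalling group within 0.11 of 0, which also held Atrip at -0.10, Mdc1 at -0.022 and Rif1 at 0.043.

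**Figure D4:**
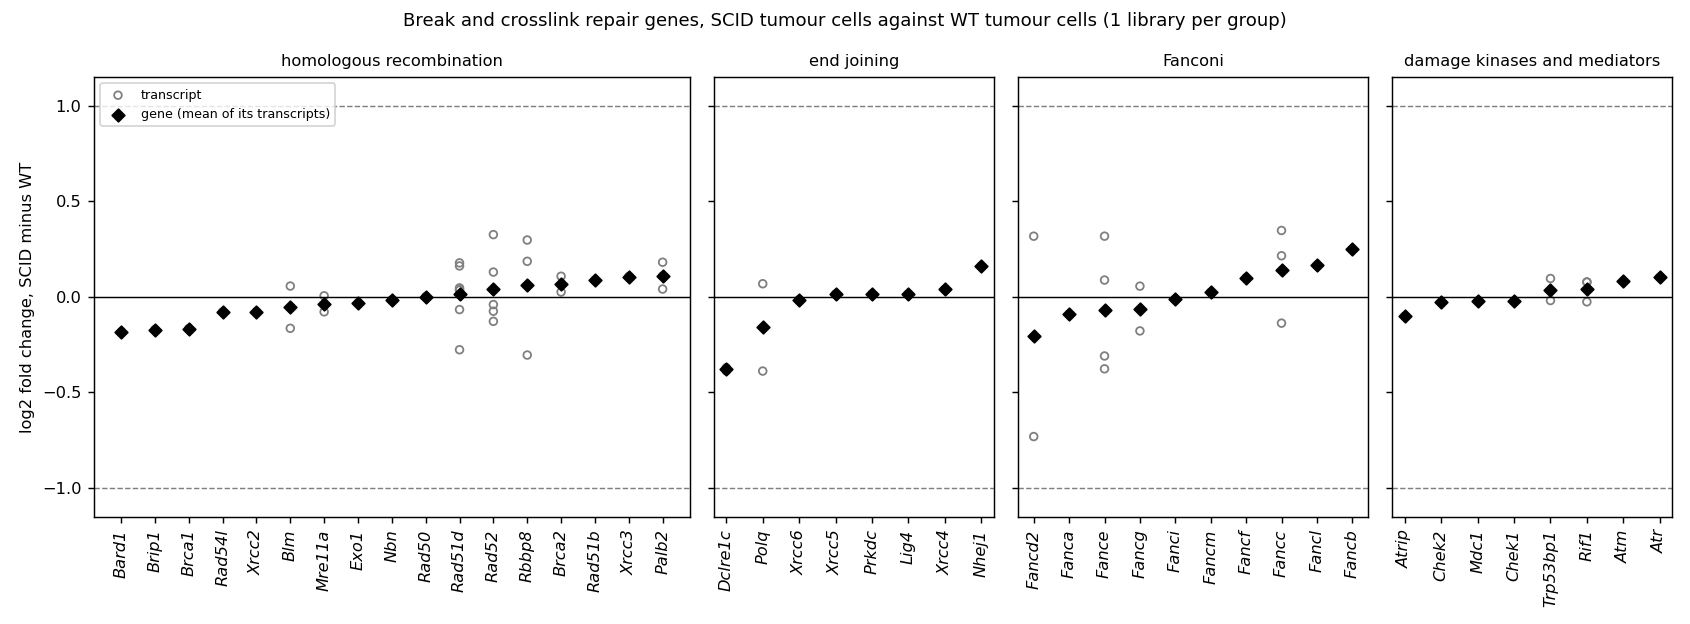
Log2 fold change of each repair gene in SCID tumour cells minus WT tumour cells, by pathway. Diamonds are gene values, open circles the transcripts of each gene, and dashed lines 2-fold. The gene values run from Dclre1c at -0.38 to Fancb at 0.25, none near the 2-fold lines, and the Fancd2 transcripts spread from -0.73 to 0.32.

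Markers of the sorted cells and of host cells varied among these libraries. All 12 listed epithelial markers had a value, with Epcam at 1.25 in SCID tumour cells and 1.59 in WT tumour cells against the line, and Krt19 at -1.01 (SCID) and -0.95 (WT). Of these 12, 8 were below 0 against the line in SCID tumour cells and 7 in WT tumour cells, with medians of -0.29 (SCID) and -0.15 (WT). In SCID against WT tumour cells 11 of the 12 were below 0, with a median of -0.18 and the lowest value, -0.71, in Spint1. Of 15 macrophage and monocyte markers 4 had a value, and all 4 were lower in SCID than in WT tumour cells, from -1.75 for Apoe to -0.80 for Cd14. Against the line these 4 ran from -0.056 for Mrc1 to 1.02 for Apoe in SCID tumour cells, and all were above 0 in WT tumour cells, from 0.77 for Mrc1 to 2.77 for Apoe. The 3 fibroblast markers with a value, of 12 listed, ran from 0.63 to 2.61 in SCID tumour cells and from 1.04 to 1.90 in WT tumour cells against the line. The 3 endothelial markers, of 9 listed, ran from 0.80 to 1.63 (SCID) and from 1.09 to 1.66 (WT). Of 15 T, B and NK cell markers 3 had a value, all between 0.012 and 0.017 in SCID against WT tumour cells. Against the line these 3 ran from -0.61 (Eomes) to 0.36 (Tcf7) in SCID tumour cells. In WT tumour cells they ran from -0.63 (Eomes) to 0.35 (Tcf7). Markers with no row include Ptprc and Csf1r, their levels are not known, and the part of host cells in the repair values was not tested.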

How the data were processed

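RNA of 3 groups was sequenced, 1 library per group. The authors' deposited table gives log2 fold changes for 17910 RefSeq transcripts in 3 comparisons. Per the submitters' processing notes, the tools were BWA, Partek, R 3.5.1 and DESeq2 1.20.0, and mm9 is the build listed; their roles are not stated. Any shrinkage, row filter or read assignment is not given in the sources used here, and could narrow the values. The third column named only its SCID side and equalled the first minus the second within 1e-12 in all 17910 transcripts, so it was read as SCID minus WT. Starts of 30 of 33 matched RefSeq promoters of GRCm38.p6 equalled a start in the table, so coordinates were read as GRCm38; ends are the stop minus 1.

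Transcripts of a gene were averaged (Python 3.11.15, pandas 2.3.3), called at 2-fold. No test was made. The design rows named every member, the 3 highest and 3 lowest further repair genes per comparison with a line and up to 2 genes of other lists; any others were picked with their values in view, and some items are not reported here. GC content and length came from GENCODE vM21 for 93.2% of transcripts. Promoters over 1000 bases from a start in the table (1 member) were left out. Averaging, calling and trend removal were run on simulated data with effects well past the threshold and noise below the spread between transcripts here. That run checks the code and does not show how reliable the calls are. Members, lists and tests were chosen with earlier results of these data known. A replicate number here only names a library.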

Additional observations from a re-analysis of the deposited data

Results flagged for a closer look

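Of the 43 genes, 2 lay on opposite sides of 0 in the SCID and WT comparisons with the line, and the difference was not tested. Xrcc3 was at 0.099 in SCID tumour cells and -0.008 in WT tumour cells, a SCID minus WT value of 0.106. Rbbp8 was at 0.021 in SCID tumour cells and -0.038 in WT tumour cells, a difference of 0.060. Both of these gene differences are below the SD of 0.24 between transcripts of the same repair gene. The coding transcript of Rbbp8 alone was below 0 in both comparisons with the line, at -0.37 (SCID) and -0.066 (WT). Its SCID minus WT value was -0.30, opposite in sign to the gene value and larger in size than that SD. No group has 4 or more libraries, so no library could be compared with others of its group.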

How the results depend on the processing

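The median of the 43 genes ran from -0.37 to -0.31 in SCID tumour cells against the line, from -0.39 to -0.32 in WT tumour cells against the line and from -0.025 to 0.008 between hosts, over the alternatives that give a median: the median transcript, the transcript farthest from 0, coding transcripts, genes with 1 transcript, centring, leaving out the farthest member and removal of a GC and length trend. The number lower by 2-fold, 5 (SCID) and 4 (WT), was 11 and 11 at 1.5-fold, 0 and 0 at 4-fold, and 3 and 3 among the 28 genes with 1 transcript, where fewer genes were counted. After the GC and length adjustment Brca1 passed 2-fold in the SCID comparison (-1.02). Polq passed it in the WT comparison (-1.01) and Fancd2 no longer did there (-0.93). The adjusted values left out transcripts without a sequence, which 1 of 2 had for Fancd2, 2 of 3 for Fancc, 1 of 3 for Rif1 and 4 of 5 for Rad52. With the transcript farthest from 0 Polq passed 2-fold in the WT comparison (-1.09). Of 726 gene values recomputed, 21 moved by more than the SD between transcripts over all genes, and no called gene turned its sign. That SD was 0.22 between hosts, 0.33 in the SCID comparison and 0.31 in the WT comparison. Many of the 726 could not move, so the 21 are no measure of stability. The 28 genes with 1 transcript keep their value under every choice of transcripts, and centring only takes off an all-gene median near 0. Of the 726, 116 changed by over 1.5 times or changed sign: 52 without the GC and length trend, 32 with the transcript farthest from 0, 16 with the median transcript, 9 with coding transcripts, 7 with centring and none among genes with 1 transcript, where no value can change. The 24 that changed sign had values within 0.103 of 0. Examples are, by the median transcript, Fancc (0.22 between hosts, 0.40 in the SCID comparison), Rbbp8 (0.19 in the SCID comparison) and Rad52 (-0.040 between hosts), and, without the trend, Mdc1 (-0.52) and Xrcc4 (-0.025) in the WT comparison. No paired analysis was possible because each group has 1 library and no test was made. Depth limits could not be set, since the table holds no counts.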
